A study of Saccharomyces cerevisiae with 16 samples.

Results

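Heat shock proteins and molecular chaperones were followed as a set of 33 genes of budding yeast, Saccharomyces cerevisiae. They were taken from the deposited gene tables by name, although the list was drawn up with earlier results of these data known, and make up 33 of 6685 nuclear open reading frames (ORFs). All 33 passed the expression minimum, a mean of 1 FPKM (fragments per kilobase of gene, scaled to library size) over the libraries, as did 5881 ORFs in all. RNA-seq had been done on the hda1∆ strain YTK113 (labelled hda1-/-) and on the wild-type strain YSB787, to see how gene expression changes as the carbon source is shifted with and without the Hda1 histone deacetylase. Both strains were in synthetic complete medium, first with raffinose (0 min), then with galactose for 15, 30 and 120 min (the first pulse). Glucose followed for 30 and 120 min, and then galactose again for 15 and 30 min (the second pulse, taken from an added 1 in the stage label). Each genotype was 1 strain with 1 library per stage, so there are no replicates, no difference here has a replicate check, and no p-value is given. Intervals after folds are 95% exact binomial (Clopper-Pearson) intervals of the ratio of fragments, and cover counting error only.

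Chaperones bind unfolded or newly made proteins and keep them from clumping. Hsp70 proteins do this in cycles of ATP hydrolysis that J-proteins start and exchange factors such as Hsp110 end, and Hsp90 takes over later folding steps of kinases and receptors with the help of co-chaperones. Small heat shock proteins hold misfolded chains, and the disaggregase Hsp104 pulls them out of aggregates again. In yeast the transcription factor Hsf1 drives many of these genes through heat shock elements, and the stress factors Msn2 and Msn4 drive some of them through stress response elements.

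Fragments in annotated genes numbered 9.01 to 12.0 M per library in hda1∆ and 8.27 to 12.4 M in wild type. HDA1 itself was at 0 to 0.162 FPKM in hda1∆ libraries and at 27.0 to 38.8 FPKM in wild-type libraries, as the labels say. RNA genes took 15.7% of gene bases in the hda1∆ library at 120 min of the first pulse, against 10.2% in wild type. The median log2 ratio of all tested ORFs was -0.14 at that stage and -0.16 at both stages of the second pulse, and between -0.03 and 0.09 elsewhere. The 33 messages together held 1.80 to 2.45% of the summed FPKM of ORFs in hda1∆ and 1.57 to 2.55% in wild type.

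Most chaperone messages differed little between the genotypes. Ratios are of FPKM plus 1 in hda1∆ to FPKM plus 1 in wild type, and a message was called higher from 1.7-fold up and lower from 0.588-fold down. Of 264 member-stage pairs, 17 were higher (6.44%, against 5.99% over all tested ORFs) and 5 were lower (1.89%, against 3.53%). By these pooled calls the set as a whole stood near the background. Ratios above 1 did not at every stage. At the last 3 stages 27, 24 and 27 of the 33 were above 1, against 44.1%, 30.2% and 30.3% of all tested ORFs. At 30 min of glucose 13 were, against 62.1%. The 17 belonged to 7 genes, HSP26 (6 stages), SSE2 and HSP30 (3 stages each), BTN2 (2 stages), and HSP104, HSP42 and APJ1 (1 stage each). Thus 7 of the 33 were higher at 1 stage or more, as were 16.7% of all tested ORFs. At 2 stages or more 4 of the 33 were higher, as were 11.0% of all tested ORFs. The 5 lower calls were SSA4 at 30 min of glucose and SSA2, SSB2, YDJ1 and CUR1 at 120 min of the first pulse. Of all tested ORFs 19.0% were lower at 1 stage or more. The other 21 members stayed within the rule at every stage. Levels of each member over the 8 stages overlapped between the genotypes, but these ranges span the carbon source shifts. Neither count was taken over all tested ORFs. Stage by stage, SSE2 and APJ1, 2 of the 33, were above 1 in ratio at all 8 stages, as were 7.69% of all tested ORFs.

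In raffinose 2 members were higher and none lower, where 4.90% of all tested ORFs were higher and 1.11% lower. At 15 min of the first pulse 3 were higher and none lower (7.84% and 1.7% of all ORFs), and at 30 min 2 and none (9.35% and 2.41%). At 120 min 2 were higher and 4 lower (8.06% and 9.79%). The hda1∆ library of that stage had the highest share of RNA genes (15.7%). The hda1∆ library at 15 min of the second pulse held 14.7% (11.7% in wild type). The part of these shares in the calls was not tested. At 30 min of glucose 1 was higher and 1 lower (5.95% and 1.39%), and at 120 min 4 were higher and none lower (5.02% and 1.26%). In the second pulse 2 were higher at 15 min (3.52%) and 1 at 30 min (3.32%), and none was lower (5.92% and 4.69%).

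Member medians stood above those of all ORFs at 120 min of the first pulse and at the last 3 stages, and below them elsewhere. The median log2 ratio of the 33 was -0.0049 in raffinose and 0.05, 0.03 and -0.09 in the first pulse, then -0.05 and 0.19 after glucose and 0.22 and 0.34 after the return to galactose. Over all tested ORFs these medians were 0.0062, then 0.09, 0.09 and -0.14, then 0.08 and -0.03, then -0.16 and -0.16. Members with a ratio above 1 numbered 24 of 33 at 15 min of the second pulse and 27 at 30 min, where 30.2% and 30.3% of all tested ORFs were above 1, though only 2 and 1 passed the rule. With the all-ORF median subtracted, 4 and 5 passed there (4.64% and 4.54% of all tested ORFs), HSP82 and APJ1 joining at 15 min and SSA2, SSE1, YDJ1 and BTN2 at 30 min.

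**Figure D1:**
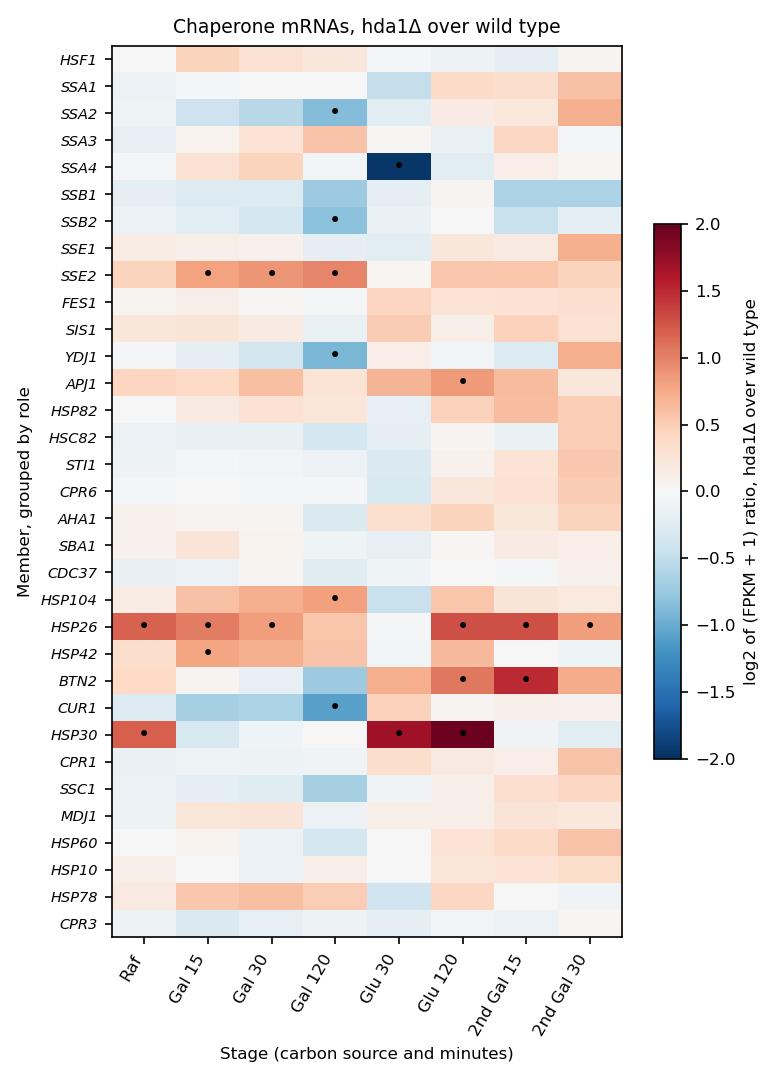
Log2 ratio of hda1∆ over wild type (FPKM + 1) for the 33 chaperone messages (rows, by role) at the 8 stages (columns); a dot marks a ratio past 1.7-fold, and 1 library stands behind each genotype and stage. Dots lie in 22 of the 264 cells, 17 higher and 5 lower, with SSA4 at 30 min of glucose the lowest ratio (-1.95) and HSP30 at 120 min of glucose the highest (1.97).

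HSF1 (YGL073W, chromosome VII 368753 to 371254), the gene for the regulator itself, varied little. Its messages stood at 28.5, 39.8, 39.0, 35.1, 46.9, 27.3, 37.6 and 42.9 FPKM over the 8 stages in hda1∆ and at 28.3, 28.9, 31.5, 30.0, 48.4, 29.3, 43.1 and 41.2 FPKM in wild type. The highest level came at 30 min of glucose in both genotypes, and the ratio between them ran from 0.877 to 1.37. No shift moved HSF1 by 2-fold in either genotype. HSF1 overlaps YGL074C and YGL072C over 16.9% of its length, and no strand option was given in quantification.

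Sequences upstream of the 33 coding sequences were searched for units of the heat shock element, GAANNTTC or TTCNNGAA, which overlap where units run on, and for the stress response element AGGGG, each on both strands. In the window from 250 bases before the start codon to 50 after it, a heat shock unit was in 19 of 33 members (57.6%) and in 22.4% of 6684 ORFs. AGGGG was in 9 of 33 (27.3%) and in 21.3% of ORFs. In the 500 bases before the start codon, a window added after the data were seen, the shares were 78.8% against 35.2% for the heat shock unit and 39.4% against 33.7% for AGGGG. There 10 members (30.3%) held at least 2 copies of AGGGG, against 8.05% of ORFs, among them SSA4, HSP26, HSP42, HSP104 and HSP78. HSF1, SSA3, SSB1 and HSP30 held neither motif in either window. A match of letters is a description and says nothing of binding. The following stretches of 250 bases, from 400 to 151 bases before the start codon, are shown because these members carry the main differences: SSA4 for the lowest ratio, HSP26 and SSE2 for repeated higher calls, and HSP30 for its strong swings without a match. Heat shock units and stress response elements are in capitals, and the reading is 5′ to 3′ on the gene's strand in the RefSeq R64 build.
SSA4 (chrV:364189-364438, + strand): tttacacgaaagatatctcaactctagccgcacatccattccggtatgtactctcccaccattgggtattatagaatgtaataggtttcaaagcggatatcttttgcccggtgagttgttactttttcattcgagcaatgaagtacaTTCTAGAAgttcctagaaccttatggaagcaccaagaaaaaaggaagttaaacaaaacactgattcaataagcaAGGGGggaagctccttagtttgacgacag
HSP26 (chrII:381630-381879, + strand): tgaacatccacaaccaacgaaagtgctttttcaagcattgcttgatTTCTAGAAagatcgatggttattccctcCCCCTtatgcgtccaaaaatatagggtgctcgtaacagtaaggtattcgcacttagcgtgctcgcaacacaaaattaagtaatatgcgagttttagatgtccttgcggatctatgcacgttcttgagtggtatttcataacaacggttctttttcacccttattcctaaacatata
SSE2 (chrII:576147-576396, - strand): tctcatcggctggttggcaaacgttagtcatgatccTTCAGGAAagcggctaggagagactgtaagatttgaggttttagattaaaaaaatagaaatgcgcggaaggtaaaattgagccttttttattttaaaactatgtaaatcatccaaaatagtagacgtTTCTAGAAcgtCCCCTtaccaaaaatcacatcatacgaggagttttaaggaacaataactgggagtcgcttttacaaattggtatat
HSP30 (chrIII:157258-157507, - strand): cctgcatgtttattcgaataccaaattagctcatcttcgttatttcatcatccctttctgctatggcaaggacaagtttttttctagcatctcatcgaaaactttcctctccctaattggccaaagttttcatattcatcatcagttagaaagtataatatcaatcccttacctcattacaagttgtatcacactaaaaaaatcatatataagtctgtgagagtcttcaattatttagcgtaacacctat

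SSA4, the most strongly heat-inducible of the Ssa cytosolic Hsp70 genes (YER103W, chromosome V 364589 to 366517), gave the lowest ratio of the set, after the change from galactose to glucose. At 30 min of glucose it stood at 101 FPKM in hda1∆, against 394 FPKM in wild type, 0.258-fold (0.246 to 0.268), and only 33 of the 5881 tested ORFs had a lower ratio there. The levels over the 8 stages were 14.8, 24.7, 27.6, 49.2, 101, 10.7, 38.9 and 104 FPKM in hda1∆. In wild type they were 15.1, 19.8, 20.1, 51.2, 394, 12.6, 35.3 and 102 FPKM. Both genotypes thus started from a like level at 120 min of galactose and met again at 120 min of glucose, and no other stage passed the rule. From 120 min of galactose to 30 min of glucose SSA4 was 2.03-fold (1.91 to 2.20) in hda1∆, against 7.56-fold (7.25 to 8.16) in wild type, and the hda1∆ call was lost with the all-ORF median subtracted or a pseudocount of 5. From 120 min of glucose to 30 min of the second pulse it rose 8.94-fold in hda1∆ and 7.58-fold in wild type. AGGGG and TTCTAGAA in the stretch printed above are its matches there.

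No other member passed the rule downward at 30 min of glucose. SSA1, a constitutive Ssa gene that heat raises further, stood at 0.720-fold at that stage, HSP104 at 0.734-fold, HSP78 at 0.759-fold, CPR6 at 0.813-fold, STI1 at 0.823-fold and HSP82 at 0.889-fold. Other members lay above 1 at that stage, among them BTN2 at 1.66, APJ1 at 1.60, SIS1 at 1.41, CUR1 at 1.38 and FES1 at 1.35, and 13 of the 33 did so in all, where 62.1% of all tested ORFs were above 1.

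SSA1 (YAL005C, chromosome I 139503 to 141431) and SSA2 (YLL024C, chromosome XII 95566 to 97485) encode the abundant Ssa proteins, and their coding sequences are 96.4% identical. Of windows of read length, 45.5% of SSA1 and 45.8% of SSA2 occur more than once in the genome, so the split of fragments between them is uncertain. SSA2 gave 1953, 1406, 1173, 897, 1614, 1971, 655 and 1175 FPKM in hda1∆, against 2077, 1878, 1719, 1639, 1864, 1755, 566 and 718 FPKM in wild type. Its ratio stood at 0.749, 0.682 and 0.548 (0.538 to 0.556) at the 3 stages of the first pulse, passing the rule at the last, and at 1.64 at 30 min of the second pulse. The low call was lost when the all-ORF median was subtracted. SSA1 gave 1424, 1511, 1568, 1782, 1360.4, 885, 1495 and 2976 FPKM in hda1∆ and 1540.4, 1554, 1581, 1791, 1889.6, 678, 1166 and 1992 FPKM in wild type, and stayed within the rule. SSA1 also overlaps YAL004W over 33.6% of its length, and no strand option was given in quantification, so reads of the pair cannot be told apart.

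SSA3, the other inducible Ssa gene, was within the rule throughout. Its lowest, median and highest levels were 12.9, 22.4 and 45.7 FPKM in hda1∆ and 14.2, 18.0 and 45.3 FPKM in wild type. The inducible pair, SSA3 and SSA4, made up 4.35% of the summed Ssa FPKM at 30 min of glucose in hda1∆, against 10.2% in wild type. After 120 min of the first pulse that share was 3.42% in hda1∆ and 2.32% in wild type. SSA1 took 64.2% of the family in hda1∆ at that stage, against 51.0% in wild type, and at 120 min of glucose 30.7% in hda1∆ and 27.6% in wild type.

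SSB1 (YDL229W, chromosome IV 44065 to 45906) and SSB2 (YNL209W, chromosome XIV 252059 to 253900) encode the Hsp70s that sit on ribosomes and meet new chains. Both fell steeply in the second pulse, in either genotype. SSB1 gave 1866, 1688, 1549, 1152, 1186, 2453, 599 and 201 FPKM in hda1∆, against 2117, 2034, 1869, 1905, 1359.8, 2369.7, 932 and 312 FPKM in wild type. From 120 min of glucose to 30 min of the second pulse SSB1 fell to 0.0825-fold (0.0794 to 0.0848) in hda1∆ and to 0.132-fold (0.128 to 0.135) in wild type. SSB2 moved alike, reaching 0.129-fold in hda1∆ and 0.149-fold in wild type. The first pulse gave no such fall, with SSB1 at 0.618-fold of raffinose in hda1∆ and 0.900-fold in wild type after 120 min.

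Between the genotypes SSB1 stood below 1 at 7 of the 8 stages, from 0.605 at 120 min of the first pulse to 1.04 at 120 min of glucose, without passing the rule. SSB2 passed it at 120 min of the first pulse, with 705 FPKM in hda1∆ and 1247 FPKM in wild type, 0.565-fold (0.554 to 0.576). Subtraction of the all-ORF median ended that call. The coding sequences are 97.5% identical and 31.7% of their read-length windows are repeated, and SSB1 overlaps YDL228C over 34.2% of its length. SSB1 held 50.5 to 62.1% of the summed level in hda1∆ and 57.9 to 60.9% in wild type.

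Exchange factors release ADP from Hsp70. SSE2 (YBR169C, chromosome II 573915 to 575996), the stress-induced Hsp110 gene, was higher in hda1∆ throughout the first pulse. Its levels were 62.6, 119.7, 157, 240.3, 108, 62.3, 209 and 338 FPKM in hda1∆, against 45.5, 68.4, 84.9, 121, 105, 42.2, 142 and 248 FPKM in wild type. All 8 ratios were above 1. The ratio was 1.74 (1.65 to 1.85), 1.84 (1.76 to 1.95) and 1.98 (1.90 to 2.07) at 15, 30 and 120 min, and 1.03 at 30 min of glucose. The call at 15 min was lost with the all-ORF median subtracted and with a pseudocount of 5. SSE1, the main Hsp110 gene, stayed within the rule at 701 to 1283 FPKM in hda1∆ and 429 to 1239.8 FPKM in wild type. SSE2 therefore took 19.4% of the summed SSE1 and SSE2 level at 120 min of the first pulse in hda1∆, against 9.69% in wild type, and at the last stage 32.6% in hda1∆ and 36.6% in wild type. FES1, for an unrelated exchange factor that helps clear misfolded proteins, ranged from 0.982 to 1.35 in ratio.

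J-proteins start the Hsp70 cycle and bring it clients. YDJ1 (YNL064C, chromosome XIV 505868 to 507097), for the major cytosolic J-protein, gave 267, 209, 173, 113, 343, 270.3, 70.3 and 111 FPKM in hda1∆ and 273, 239, 222, 214, 312, 282, 85.6 and 66.7 FPKM in wild type. Its ratio was 0.530 (0.497 to 0.559) at 120 min of the first pulse, and it passed the rule there also after subtraction of the all-ORF median. From that stage to 30 min of glucose YDJ1 rose 3.02-fold in hda1∆, while in wild type it was at 1.46-fold, within the rule. APJ1, for a J-protein linked to aggregate clearance, was above 1 at all 8 stages, from 1.17 to 1.80, and passed the rule at 120 min of glucose (45.8 FPKM in hda1∆ and 25.1 FPKM in wild type, 1.63 to 2.05 by counting). That call was lost with a pseudocount of 5. SIS1, for the essential J-protein that also holds back Hsf1, ranged from 0.915 to 1.41.

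**Figure D2:**
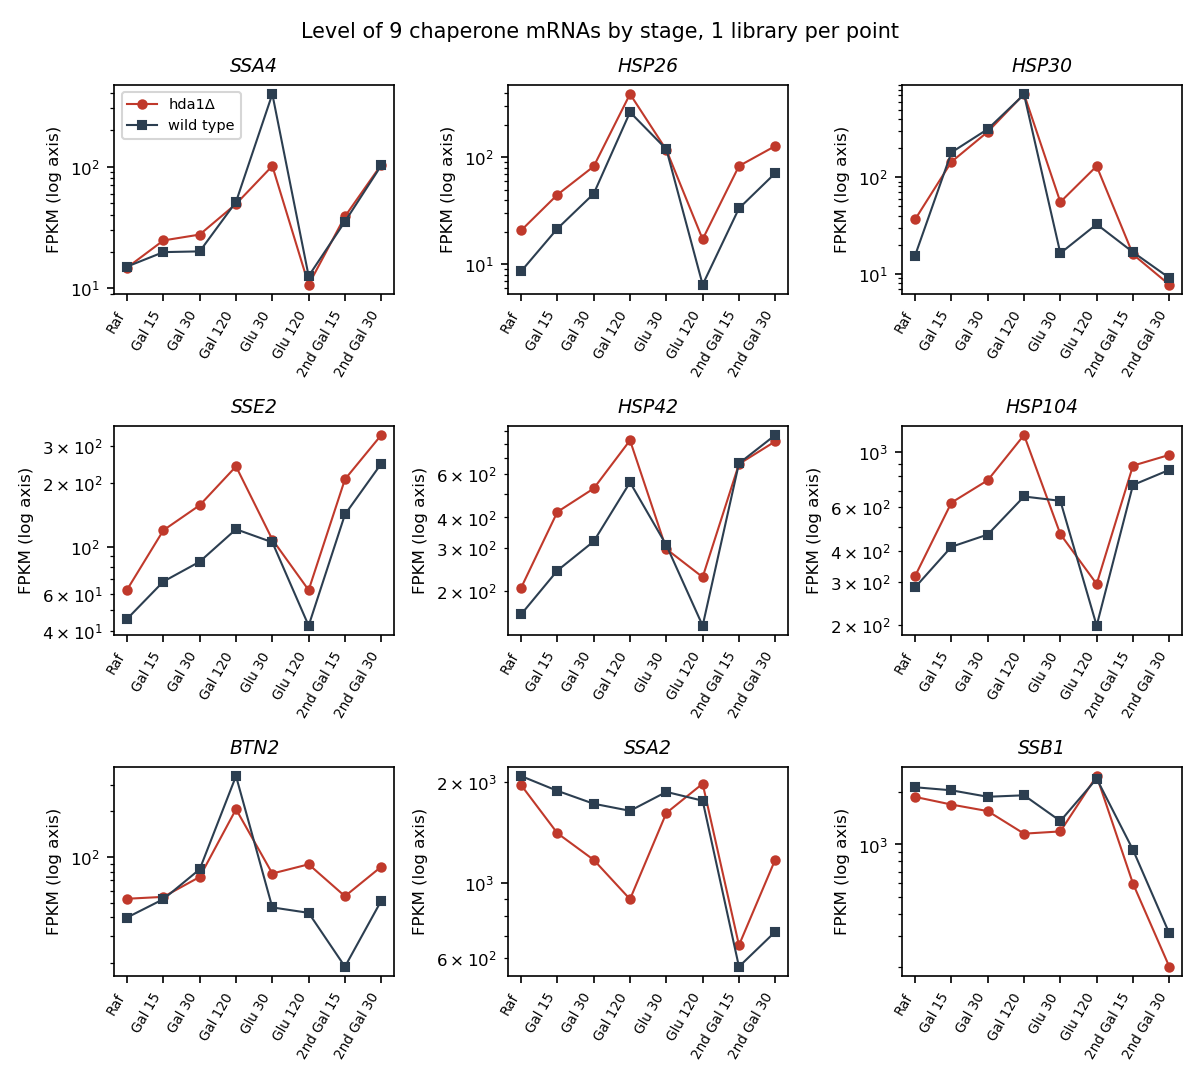
FPKM (log axis, scale differs by panel) of 9 chaperone messages at the 8 stages, hda1∆ as red circles and wild type as dark squares, 1 library per point. SSA4 departs at 30 min of glucose (101 FPKM in hda1∆, 394 in wild type), HSP26 and SSE2 lie above wild type in the first pulse, and HSP30 is higher in glucose (55.2 and 130.0 FPKM in hda1∆, 16.3 and 32.5 in wild type).

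Hsp90 is made from HSP82 (YPL240C), which heat raises, and HSC82 (YMR186W), which is made at all times. HSP82 ranged from 162 to 660.4 FPKM in hda1∆ (median 299) and from 118 to 493 FPKM in wild type (median 243), with ratios from 0.889 to 1.54. HSC82 ranged from 636 to 1285 FPKM in hda1∆ (median 1083) and from 637 to 1401 FPKM in wild type (median 1242), with ratios from 0.785 to 1.40. No ratio of either gene passed the rule. HSP82 rose 4.05-fold in hda1∆ and 3.94-fold in wild type from 120 min of glucose to 30 min of the second pulse. Its share of the Hsp90 level was then 42.5% in hda1∆ and 42.4% in wild type, and at 120 min of glucose 12.9% in hda1∆ and 10.0% in wild type. After 15 min of the second pulse the share was 31.6% in hda1∆ and 21.5% in wild type. The genes are 91.7% identical, but only 0.640% of HSP82 windows of read length are repeated.

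The Hsp90 co-chaperones STI1 (a bridge to Hsp70), CPR6 (a cyclophilin), AHA1 (an activator of the ATPase), SBA1 (the p23 protein) and CDC37 (a kinase loader) stayed within the rule at every stage. Their medians of log2 ratio ran from -0.16 at 30 min of glucose to 0.45 at 30 min of the second pulse. CDC37 was the steadiest of them, at 56.4 to 89.0 FPKM in hda1∆ and 56.8 to 92.6 FPKM in wild type. STI1 reached 1.45-fold, CPR6 1.42-fold and AHA1 1.37-fold at the last stage, and SBA1 stayed between 0.897 and 1.19. AHA1 rose 2.06-fold in hda1∆ from 120 min of galactose to 30 min of glucose, against a value of 1.35 within the rule in wild type, and the call was lost with the all-ORF median of that shift subtracted or a pseudocount of 5. CPR6 overlaps YLR217W over 27.2% of its length.

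Aggregate-handling genes held most of the higher calls, mainly through HSP26 (6 of 17). CUR1, also among them, had a lower call and no higher one. HSP26 (YBR072W, chromosome II 382030 to 382674), for a small heat shock protein, was higher in hda1∆ at 6 of the 8 stages. Its levels were 20.7, 44.7, 82.3, 391, 118, 17.1, 83.0 and 128 FPKM in hda1∆ and 8.58, 21.5, 45.7, 265, 119, 6.44, 33.3 and 71.2 FPKM in wild type. The ratio was 2.26 (1.77 to 3.27) in raffinose, 2.03 (1.73 to 2.49) and 1.78 (1.59 to 2.04) at 15 and 30 min of the first pulse, and 2.44, 2.45 and 1.78 from 120 min of glucose on. At 120 min of the first pulse it was 1.48 and at 30 min of glucose 0.986, both within the rule. Within each genotype HSP26 rose from raffinose to 120 min of galactose, 18.1-fold (16.2 to 22.1) in hda1∆ and 27.7-fold (23.6 to 40.3) in wild type.

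HSP42 (YDR171W, chromosome IV 806621 to 807748), the other cytosolic small heat shock protein gene, gave 207, 421, 525, 825, 297, 229, 661 and 817 FPKM in hda1∆. In wild type it gave 161, 243, 319.5, 556, 308, 145, 665 and 867 FPKM. Its ratio was 1.73 (1.66 to 1.81) at 15 min of the first pulse, past the rule, and 1.64 and 1.48 at 30 and 120 min, and in the second pulse it was 0.994 and 0.942. HSP104 (YLL026W, chromosome XII 88623 to 91349), for the disaggregase, followed a like course with 316, 626, 771, 1175, 467, 294, 884 and 977 FPKM in hda1∆ and 285, 415, 466, 663, 637, 199, 738 and 849.7 FPKM in wild type. It passed the rule only at 120 min of the first pulse, at 1.77 (1.74 to 1.80), and not there when TPM, which scales each library to the same total, replaced FPKM. The 15 min call of HSP42 and the 30 min call of HSP26 were lost when the all-ORF median was subtracted.

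BTN2 and CUR1 encode related sorting factors that carry misfolded proteins to deposit sites. BTN2 (YGR142W, chromosome VII 772454 to 773686) gave 52.9, 54.5, 73.8, 207, 77.7, 89.4, 55.0 and 86.2 FPKM in hda1∆, against 39.8, 52.6, 82.9, 343, 46.4, 42.7, 18.8 and 51.4 FPKM in wild type. Its peak at 120 min of the first pulse was lower in hda1∆ without passing the rule (0.604, 0.577 to 0.631), while later levels were higher, at 2.07 (1.90 to 2.30) at 120 min of glucose and 2.82 (2.53 to 3.39) at 15 min of the second pulse. CUR1 (YPR158W, chromosome XVI 843262 to 844020) gave 45.6, 22.3, 16.6, 11.0, 55.0, 48.2, 21.8 and 41.9 FPKM in hda1∆, against 54.8, 35.7, 26.4, 24.3, 39.6, 46.4, 20.3 and 39.5 FPKM in wild type. Its ratio was 0.634, 0.645 and 0.472 (0.354 to 0.571) in the first pulse, passing the rule at 120 min. The lowest CUR1 value, 11.0 FPKM, rests on 104 fragments.

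HSP30 (YCR021C, chromosome III 156109 to 157107), for a membrane protein that restrains the plasma membrane proton pump under stress, had the widest range of the set. Its levels were 36.5, 144, 294, 724, 55.2, 130.0, 15.9 and 7.71 FPKM in hda1∆ and 15.4, 180.1, 314, 717, 16.3, 32.5, 16.7 and 9.07 FPKM in wild type. During both galactose pulses the ratio stayed between 0.800 and 1.01, whereas outside galactose HSP30 was higher in hda1∆. The ratio was 2.28 (1.97 to 2.84) in raffinose, 3.25 (2.91 to 3.96) at 30 min and 3.90 (3.58 to 4.47) at 120 min of glucose. From raffinose to 120 min of galactose HSP30 rose 19.3-fold (18.1 to 21.8) in hda1∆, against 43.7-fold (39.8 to 54.6) in wild type. The second pulse brought no rise, and from 120 min of glucose to its 15 min stage HSP30 fell to 0.129-fold in hda1∆ and stood at 0.529 in wild type, within 2-fold.

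CPR1 (YDR155C), for cytosolic cyclophilin A, was the most abundant member at 2366 to 3482 FPKM in hda1∆ and 2043 to 3661 FPKM in wild type. Its ratio ran from 0.909 to 1.49, and it overlaps YDR154C over 49.5% of its length. Mitochondrial chaperones also stayed within the rule at every stage. SSC1, for the mitochondrial Hsp70 that pulls in proteins, had its lowest ratio, 0.629, at 120 min of the first pulse (385 FPKM in hda1∆ and 612 FPKM in wild type). Its partner MDJ1, a J-protein, ranged from 0.923 to 1.20 in ratio. HSP60 and HSP10, for the chaperonin and its lid, ranged from 0.786 to 1.49 and from 0.917 to 1.29. HSP78, for the mitochondrial relative of Hsp104, stood at 1.45, 1.52 and 1.41 in the first pulse and at 0.759 at 30 min of glucose. CPR3, the mitochondrial cyclophilin gene, had the narrowest spread of the 33, with 142 to 185 FPKM in hda1∆ and 153 to 199 FPKM in wild type.

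More members passed a 2-fold rule across carbon source shifts than passed 1.7-fold between genotypes. A message was called raised or lowered by a shift at 2-fold or 0.5-fold, later stage over earlier stage. Over 7 shifts 43 of 231 member-shift pairs were raised in hda1∆ (18.6%, against 13.3% over all tested ORFs) and 30 in wild type (13.0%, against 8.32%). Lowered pairs numbered 31 in hda1∆ (13.4%, against 10.6%) and 28 in wild type (12.1%, against 6.32%). The shifts of a genotype share their starting libraries, raffinose, 120 min of galactose or 120 min of glucose, and are not independent of each other.

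From raffinose to 15 min of galactose 3 members were raised and none lowered in hda1∆ (4.39% and 1.53% of all ORFs), against 2 and none in wild type (2.38% and 0.833%). At 30 min 6 were raised and 1 lowered in hda1∆ (6.22% and 3.33%), against 3 and 1 in wild type (3.15% and 1.29%). At 120 min 9 were raised and 3 lowered in hda1∆ (7.45% and 15.3%), against 7 and 1 in wild type (4.11% and 1.75%). SSA4, SSE2, HSP104, HSP26, HSP42, BTN2 and HSP30 were raised at 120 min in both genotypes, and SSA3 and HSP78 passed the rule in hda1∆, at 2.84 and 2.48, where wild type stayed within 2-fold. CUR1 was lowered in both, to 0.257-fold in hda1∆ and 0.454-fold in wild type, where the call was lost when the all-ORF median was subtracted.

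From 120 min of galactose to 30 min of glucose 4 were raised and 6 lowered in hda1∆ (28.6% and 5.70% of all ORFs), against 1 and 3 in wild type (10.1% and 4.03%). By 120 min of glucose 5 were raised and 11 lowered in hda1∆ (17.0% and 9.22%), against 0 and 11 in wild type (3.71% and 5.48%). The 11 lowered were the same genes in both genotypes: SSA1, SSA3, SSA4, SSE2, HSP82, HSP104, HSP26, HSP42, BTN2, HSP30 and HSP78. The 5 raised in hda1∆ were SSA2, SSB1, SSB2, YDJ1 and CUR1. All-ORF medians of these shifts were 0.56 and 0.27 log2 in hda1∆ and 0.34 and 0.16 in wild type, and after their subtraction 2 (YDJ1 and CUR1) and 1 (CUR1) members were raised in hda1∆, against 11.0% and 10.2% of all tested ORFs.

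From 120 min of glucose to 15 min of the second pulse 6 were raised and 6 lowered in hda1∆ (12.8% and 17.5% of all ORFs), against 6 and 6 in wild type (14.4% and 11.4%). The 6 raised were SSA4, SSE2, HSP104, HSP26, HSP42 and HSP78 in both. At 30 min 10 were raised and 4 lowered in hda1∆ (16.8% and 21.6%), against 11 and 6 in wild type (20.4% and 19.4%). SSA1, SSA3, HSP82 and MDJ1 joined the raised members in both genotypes, and APJ1 in wild type, at 2.52-fold where hda1∆ gave 1.64. The MDJ1 call in wild type was lost when the all-ORF median was subtracted. SSB1, SSB2, YDJ1 and HSP30 were lowered in both, and SSA2 and SSE1 in wild type, at 0.410 and 0.392-fold where hda1∆ gave 0.596 and 0.546. The gap between genotypes in these gene lists was not tested.

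**Figure D3:**
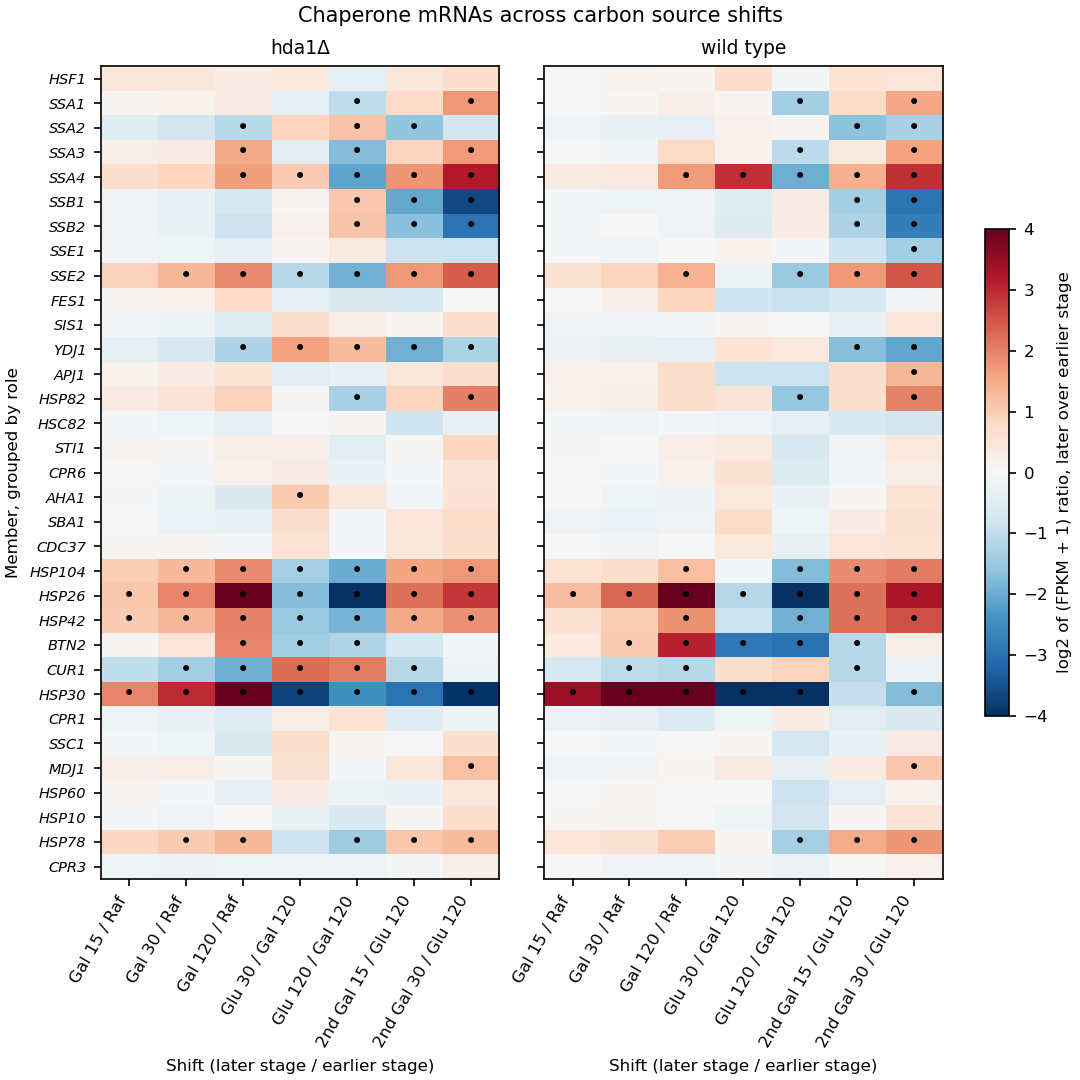
Log2 ratio (FPKM + 1) of later over earlier stage for the 33 messages (rows) in 7 shifts (columns), hda1∆ on the left and wild type on the right; dots mark 2-fold, and colours stop at 4 log2 units. The 9 members raised at 120 min of galactose in hda1∆ are all among the 11 lowered by 120 min of glucose. Both calls use the same library at 120 min of galactose, so a high level there favours both. The overlap was not counted over all ORFs. SSB1, SSB2 and YDJ1 are lowered in the second pulse in both genotypes.

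Shifts left 13 members within 2-fold throughout, in both genotypes, a count that was not taken over all tested ORFs. The 13 were HSF1, FES1, SIS1, HSC82, the co-chaperones STI1, CPR6, SBA1 and CDC37, CPR1, and the mitochondrial SSC1, HSP60, HSP10 and CPR3. HSC82, the partner of HSP82, is among them but also moved. From 120 min of glucose to 15 min of the second pulse it fell from 1096 to 636 FPKM in hda1∆. In wild type it fell from 1061 to 697 FPKM. SSA2 passed the rule in some shifts in both genotypes, and SSE1 in wild type only. Shares in the Ssa, Hsp110 and Hsp90 families thus moved with both partners.

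**Figure D4:**
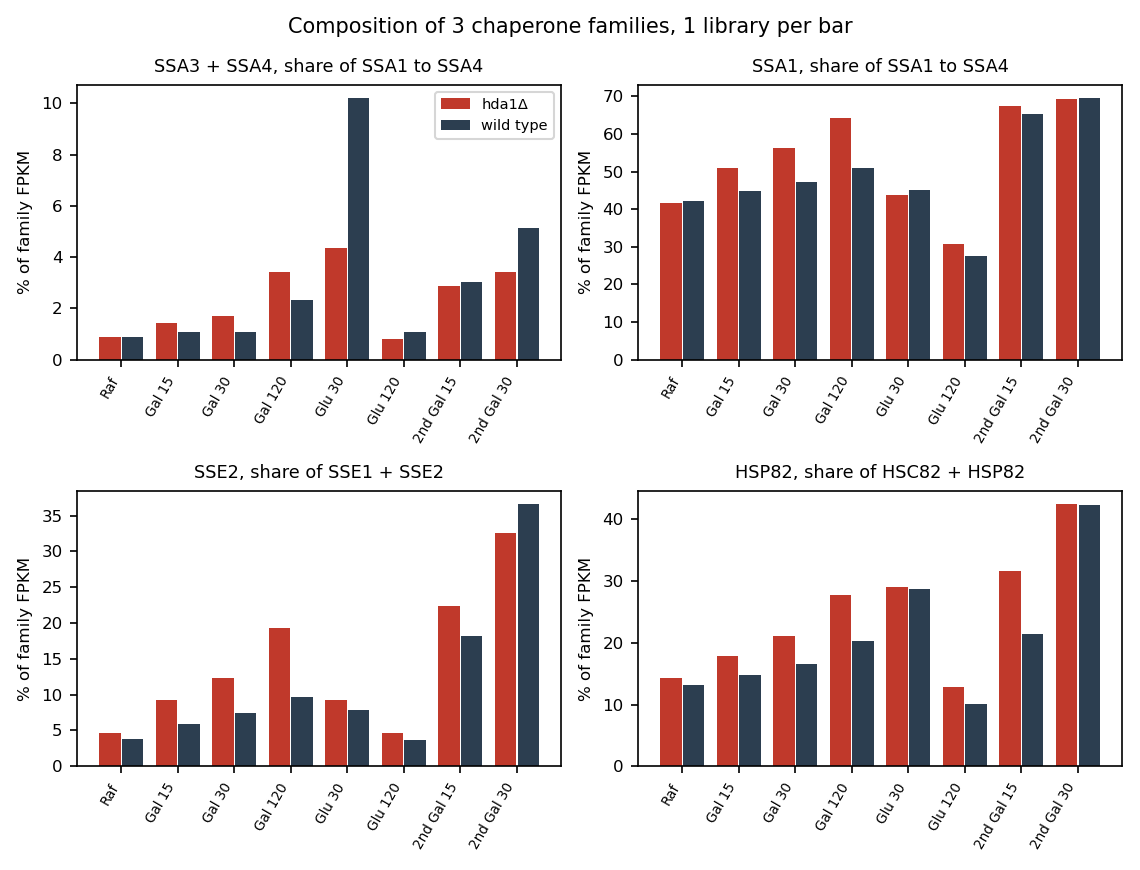
Share of the summed FPKM of a family held by the inducible Ssa pair, by SSA1, by SSE2 and by HSP82 (y axes, percent, from 0) at the 8 stages, hda1∆ in red left of wild type in dark blue, 1 library per bar. At 30 min of glucose SSA3 and SSA4 hold 4.35% in hda1∆ and 10.2% in wild type, and SSE2 at 120 min of the first pulse holds 19.4% in hda1∆ and 9.69% in wild type.

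Chaperone genes outside the 33 were read as 8 lists of 72 genes in all. Across them 4, 4, 3, 3, 2, 2, 3 and 3 were higher at the 8 stages in hda1∆ and 0, 1, 1, 12, 0, 2, 3 and 4 lower. Without CPR2, which was listed at 0 in some libraries, the higher ones numbered 3, 4, 3, 3, 2, 2, 2 and 2 and the lower ones 0, 0, 1, 12, 0, 1, 3 and 4. Their medians of log2 ratio were -0.01, then -0.03, -0.09 and -0.36, then -0.03 and -0.08, then -0.18 and -0.15. Medians differed by list. The 6 other genes named for heat shock stood at 0.74 in raffinose and at 1.02, 1.11 and 1.25 in the first pulse. At each of these stages 3 of the 6 were higher. After glucose they stood at 0.51 and 0.32. At the last 2 stages they stood at 0.37 and 0.28, beside 0.22 and 0.34 for the 33 members. CCT stood there at -0.13 and 0.16 (8 of 8 genes above 1 at the last). More than 10% of read-length windows of HSP32 and HSP33, both named for heat shock, are repeated. At 120 min of the first pulse the cytosolic chaperonin CCT (median -0.61, 2 lower), the chaperones of the endoplasmic reticulum (-0.58, 4 lower), prefoldin (-0.51, none) and further Hsp90 co-chaperones (-0.46, 2 lower) were all below the all-ORF median of -0.14. Other genes named for heat shock (1.25, 3 higher) and other prolyl isomerases (-0.10, none) stood above it. The 33 members, 2 higher and 4 lower at that stage, had a median of -0.09.

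Genes of these lists with the highest and lowest mean ratio over the first pulse were named. SEC63, for protein entry into the endoplasmic reticulum, was 0.445-fold at 120 min, and MPD1, for a disulfide isomerase, 1.06-fold. JJJ3, a J-protein gene for diphthamide synthesis, was 0.502-fold at 30 min and 0.381-fold at 120 min, and XDJ1, another J-protein gene, 1.28-fold at 120 min. PAM18, for the J-protein of the import motor, was 0.470-fold at 120 min, and JID1, a mitochondrial J-protein gene, 1.71-fold at 15 min. The chaperonin subunits CCT5 and CCT8 stood at 0.512 and 0.757, the prefoldin subunits GIM3 and GIM4 at 0.659 and 0.828, and the co-chaperones CPR7 and TAH1 at 0.343 and 1.25 at 120 min. JJJ3 rests on low levels, 1.14 FPKM in hda1∆ and 4.60 FPKM in wild type at 120 min.

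Among other genes named for heat shock, HSP32, of the HSP31 family of DJ-1 relatives, was higher in hda1∆ at all 8 stages, from 2.51 to 5.24-fold, at 4.05 to 39.2 FPKM in hda1∆ and 0.983 to 13.8 FPKM in wild type. More than 10% of its read-length windows are repeated, so its fragments are shared with near-identical copies. HSP150, for a secreted cell wall protein, was at 0.939 to 1.23. CPR4, for a secretory cyclophilin, was at 0.989 to 1.39. CPR2, another, was listed at 0 in some libraries of both genotypes, among them hda1∆ at 15 min of the first pulse (45.1 FPKM in wild type) and, at the last stage, wild type (66.2 FPKM in hda1∆), so no fold is given for it.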

How the data were processed

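RNA-seq of 16 libraries was analysed from gene tables that the authors deposited, which hold coverage, FPKM and TPM per gene. Per the file headers and the submitters' processing notes, reads were aligned with HISAT2 2.0.4 to the R64 genome and quantified with StringTie 1.3.0 against Ensembl release 86, with no strand option in its command, although the kit was directional. FastQC 0.11.5, SAMtools and bedtools 2.26.0 are also named there. Annotated genes are coding sequences without UTRs.

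Deposited FPKM was used after adding 1. Coverage times length over 202 bases was counted as 1 fragment, and 3 fragments equal 0.217 to 0.320 FPKM for a 1 kb gene. Nuclear ORFs entered when their mean over the libraries reached 1 FPKM. Genotypes were compared at 1.7-fold and shifts at 2-fold. Members and lists were chosen with earlier results of these data known. All 33 members were named, and of each of 8 other lists the genes with the highest and lowest mean log2 ratio over the first pulse. No test was run, since each group has 1 library. Upstream sequence is from the RefSeq R64 genome, in which the 33 members have identical coordinates. Repeats are 101-base windows that occur more than once. Alternatives were pseudocounts of 0.1 and 5, TPM, centring on all ORFs, 2-fold and 3-fold thresholds, an interval that excludes 1, no minimum, and leaving out a stage or the repeated members. The procedure was tested on simulated data. Software was Python 3.11.15 with SciPy 1.17.1, pandas 2.3.3, Biopython 1.88, NumPy 2.4.6 and matplotlib 3.10.9.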

Additional observations from a re-analysis of the deposited data

How the results depend on the processing

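Counts moved mainly with the threshold. At 2-fold the higher member-stage pairs numbered 9 in place of 17 and the lower ones 2 in place of 5. At 3-fold the raised pairs in hda1∆ numbered 25 and the lowered ones 18, and lowered pairs in wild type 14. Lower pairs numbered 3 after subtraction of the all-ORF median, 1 without the 120 min stage of the first pulse, and 3 without SSA1, SSA2, SSB1 and SSB2, whose sequence is repeated. After that subtraction the member median was 0.058 log2 at 120 min of the first pulse, and 0.38 and 0.50 in the second pulse. Dropping the expression minimum could change no call, since all 33 members passed it. Of 22 genotype calls, 2 were lost with a pseudocount of 5, 1 with TPM and 5 with the subtraction. None was lost with a pseudocount of 0.1 or an interval that excludes 1. The cause of these changes was not tested, apart from stricter thresholds and fewer stages or genes, which lower counts by construction. The smallest member level rests on 51 fragments (HSP26 in wild type at 120 min of glucose), and 1 library per genotype and stage leaves differences between cultures unmeasured. No paired analysis was possible because no replicate numbers are shared, with 1 library per genotype and stage. Genotypes were compared within each stage, and a fit over the 8 stages as pairs was not run, since stages are not replicates.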
